A study of Mus musculus with 10 samples.

Results

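The genes described here encode 10 carriers that move the products of protein digestion across the intestinal epithelium. They were chosen by symbol from the table of the series, which held 24368 genes. Each of the 10 symbols matched 1 row, and all 10 genes passed the filter used for testing, a mean of at least 10 normalised reads over the 10 libraries.

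Expression was measured by RNA-seq of total RNA from proximal jejunum, the upper part of the small intestine that takes up most nutrients, in mice. One group of 5 mice, labelled HuR cKO, carried a conditional deletion of HuR limited to the intestinal epithelium, and the other group of 5 mice were their wild-type (WT) littermates. HuR is an RNA-binding protein encoded by Elavl1 that attaches to AU-rich stretches of messenger RNAs, and the study was set up around its part in fat absorption. The Cre line that removed HuR, the deleted exons, and the age and sex of the mice are not stated in the sources at hand. The tissue was whole jejunum, so each library also held RNA of cells outside the epithelium. Each library came to between 16063987 and 18927440 recovered reads.

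Dietary protein leaves the gut lumen as short peptides and as free amino acids. At the brush border, the apical membrane of the enterocyte, peptides enter with protons through PEPT1, and free amino acids enter through sodium-coupled carriers and exchangers of different specificity. On the blood side, heterodimeric exchangers made of a light chain that carries the substrate and a glycoprotein heavy chain pass amino acids on. Several of these genes are known in human disease: SLC6A19 in Hartnup disorder, SLC3A1 and SLC7A9 in cystinuria, and SLC7A7 in lysinuric protein intolerance.

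Some facts on the libraries bear on every value below. Elavl1 itself stood at 633 ± 60.6 normalised reads in libraries labelled cKO and 666 ± 36.0 in WT (SD, n = 5 each; limma adjusted p = 0.798). The deposited value sums reads of all exons and cannot show an exon deletion, so every direction given here follows the labels. Enterocyte genes were abundant in every library (the 10 markers summed to between 858300 and 1749000 normalised reads in cKO and between 1135000 and 1356000 in WT). Their log2 fold changes were negative for 8 of the 10, with a median of -0.20. None passed the limma test, and 3 were lower at an unadjusted limma p under 0.05. Of the 5 distal ileum markers, which summed to between 5163 and 9819 in cKO and between 5244 and 7719 in WT, Fabp6 had at most 3.82 in cKO and 0 in WT. Slc51b of the same list, a bile acid exporter subunit, was higher in cKO, at 3140 ± 599.5 against 1816 ± 357 in WT (SD, n = 5 each; limma adjusted p = 0.0421). The other 3 markers of that list that were tested had negative log2 fold changes, and none of them passed. These were -1.16 for Slc10a2, -0.37 for Cubn and -0.18 for Slc51a. Libraries cKO 3 and cKO 5 stood apart in the clock gene Per2. It had 12.7 and 16.03 normalised reads there, 342 to 526 in the other 3 cKO libraries and 529 to 749 in WT, while none of 16 clock genes passed the limma test between genotypes (3 lower at an unadjusted p under 0.05, 0 called by edgeR or DESeq2). The 8 villus tip markers summed to between 107200 and 223800 normalised reads in cKO and between 269500 and 331600 in WT, with no overlap. Without Apoa4, their most abundant marker (a sum chosen after the data were seen, as are those without Lyve1 and Dcn), the sums were 63580 to 139600 in cKO and 135400 to 175600 in WT, which overlapped. The 6 endothelial markers summed to between 863 and 1652 in cKO and between 413 and 566 in WT. Lyve1, a marker of lymphatic vessels, carried that gap, at 856 ± 220 in cKO and 274 ± 74.0 in WT (SD, n = 5 each; limma adjusted p = 0.00272). The other 5 endothelial markers overlapped, at 161 to 607 in cKO and 181 to 266 in WT. The 6 fibroblast markers all had higher fitted values in cKO, and Col3a1 and Col1a1 passed (limma adjusted p = 0.0357 and 0.0426). Their sums were 6211 to 9835 in cKO and 4847 to 6066 in WT, with no overlap, also without the most abundant marker Dcn (3649 to 5226 in cKO and 2412 to 3330 in WT). The enteroendocrine genes Chga and Nts rose too (limma adjusted p = 0.041 and 0.0417). However, 4 of the 8 enteroendocrine markers had negative log2 fold changes, among them Gip (-0.62) and Cck (-0.31). The median of these 8 was 0.06. Without cKO 3 and cKO 5, Lyve1 passed (limma adjusted p = 0.0226) and Slc51b, Col3a1, Col1a1, Chga and Nts did not (limma adjusted p of 0.11 to 0.193). The part of these differences in the transporter results was not tested. In bulk tissue, fewer cells of a type and less RNA per cell cannot be told apart.

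Of the 10 transporter genes, 1 fell in the libraries labelled cKO and none rose at a limma adjusted p under 0.05. Over all 14062 genes tested, 1.32% passed that threshold, 0.882% as lower and 0.441% as higher. The gene that fell was Slc6a20a, a carrier of proline and related imino acids, at 6.32-fold lower on the log2(value + 1) scale. Fitted log2 fold changes were negative for 9 of the 10 genes, against 49% of all genes tested, with a median of -0.49 for the 10 genes and 0.01 for all genes. At an unadjusted p under 0.05, 5 members were lower and none higher, against 10.1% of all genes lower and 8.46% higher. The quasi-likelihood test of edgeR and DESeq2, run on recovered reads, each called Slc6a20a alone among the members. Over all genes edgeR called 1.29% (0.512% higher, 0.775% lower) and DESeq2 5.33% (2.38% higher, 2.95% lower). Without cKO 3 and cKO 5 no member passed, and 0.398% of all genes did (0.185% higher, 0.213% lower).

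**Figure D1:**
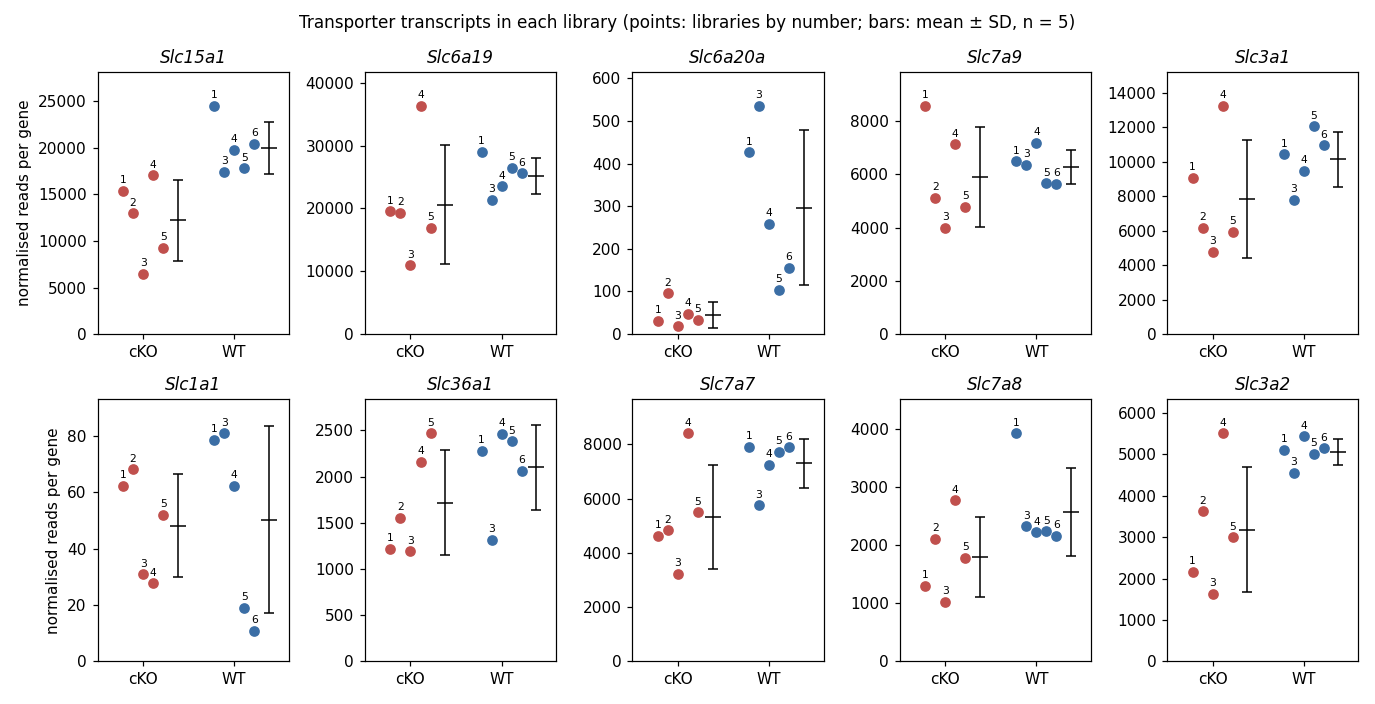
Normalised reads of the 10 transporter genes in each library, cKO (red) left of WT (blue), with the library number beside each point and the mean ± SD (n = 5) as a bar. The cKO and WT points do not overlap for Slc15a1 and Slc6a20a, and cKO 3 is the lowest library for 9 of the 10 genes.

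Slc15a1 encodes PEPT1, the proton-coupled carrier that takes dipeptides and tripeptides into the enterocyte. The gene lies on the minus strand of chromosome 14 (mm10, 121459621 to 121505252). It had 15400, 12966, 6466, 17032 and 9299 normalised reads in cKO 1, 2, 3, 4 and 5, against 24477, 17427, 19796, 17806 and 20428 in WT 1, 3, 4, 5 and 6. Every cKO library lay below every WT library, and the closest were cKO 4 and WT 3. The means were 12233 ± 4344 in cKO and 19987 ± 2815 in WT (SD, n = 5 each). The log2 fold change was -0.78 (95% interval -1.30 to -0.26) and missed the threshold over all genes (limma adjusted p = 0.115). A two-sided exact permutation test of this gene alone gave p = 0.00794, the smallest that 5 against 5 libraries allow. Groups without overlap occurred in 4.87% of all genes tested, 3.01% as lower in cKO, and in 2 of the 10 members, Slc15a1 and Slc6a20a. In the authors' deposited table Slc15a1 has a log2 fold change of -0.72 with an adjusted p of 0.0214. Without cKO 4 the log2 fold change was -0.92 and the gene passed (limma adjusted p = 0.0411, with 0.0411 to 0.391 over its 20 alternatives). Without cKO 3 and cKO 5 it was -0.40 (limma adjusted p = 0.391). Slc15a1 follows a daily rhythm in rodents, and its lowest values were in cKO 3 and cKO 5, the libraries lowest in Per2, whose part in the result was not tested.

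Slc6a20a encodes the sodium- and chloride-coupled imino acid carrier of the brush border, called SIT1, which takes up proline and hydroxyproline. It lies on the minus strand of chromosome 9 (mm10, 123634770 to 123678885). It had 30.5, 95.5, 18.2, 48.0 and 32.9 normalised reads in cKO 1, 2, 3, 4 and 5, against 426, 535, 258, 104 and 156 in WT 1, 3, 4, 5 and 6. All cKO libraries lay below all WT libraries, but cKO 2 and WT 5 were close, and the WT libraries themselves ran over a wide range. The means were 45.0 ± 30.1 in cKO and 296 ± 182 in WT (SD, n = 5 each). The log2 fold change was -2.66 ± 0.50 SE (95% interval -3.74 to -1.58), which is 6.32-fold lower with an interval of 2.98 to 13.4 (limma adjusted p = 0.0309). It ranked 80 among 14062 genes by p. The two-sided exact permutation p was 0.00794. These values rest on 23 to 528 recovered reads per library, so the lowest libraries carry large counting error.

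The call of Slc6a20a stood near the threshold. It was lost without cKO 1, cKO 3, cKO 5, WT 1, WT 3 or WT 4, at limma adjusted p of 0.0632, 0.0671, 0.0637, 0.0611, 0.0563 and 0.0779. It held without cKO 2, cKO 4, WT 5 or WT 6. The log2 fold change ran from -2.98 to -2.38 when 1 library was left out and was -2.24 without cKO 3 and cKO 5 (limma adjusted p = 0.168). Over its 20 alternatives the adjusted p ran from 0.000339 (DESeq2) to 0.168. In the authors' deposited table the log2 fold change of Slc6a20a is -2.88 with an adjusted p of 4.86e-10.

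Reads of Slc6a20a can be shared with a near copy. Mice carry a neighbouring paralog, Slc6a20b, on the same strand of chromosome 9 (mm10, 123590800 to 123632565). Of 4128 distinct stretches of 50 bases in the annotated Slc6a20a transcripts, 26.7% also occur in transcripts of another gene, 631 of them in Slc6a20b and 471 on the opposite strand in Gm17120. Both partners were counted at or near 0 in all libraries, with at most 4 recovered reads for Slc6a20b and 3 for Gm17120. How reads with several matches were treated is not stated in the sources at hand, so the level of Slc6a20a carries that uncertainty.

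The promoters of the genes whose groups did not overlap are given here as the 250 bases before the RefSeq start (GRCm38.p6, the assembly of mm10), on the coding strand. The first runs over chr9:123678833-123679082 and the second over chr14:121505255-121505504, both on the minus strand. Capitals mark any of 6 motifs, searched on both strands. The motif for HNF1 was GTTAAT, which is only part of a full HNF1 site. For the intestinal CDX factors the letters were TTTATG. For clock factors they were the D-box TTATGNAA and, as a separate motif, the E-box CACGTG. For HNF4 the search used CAAAGTCC, and the amino acid response element was TGATGNAAT. These factors are known regulators of intestinal, clock or amino acid response genes.
Slc6a20a: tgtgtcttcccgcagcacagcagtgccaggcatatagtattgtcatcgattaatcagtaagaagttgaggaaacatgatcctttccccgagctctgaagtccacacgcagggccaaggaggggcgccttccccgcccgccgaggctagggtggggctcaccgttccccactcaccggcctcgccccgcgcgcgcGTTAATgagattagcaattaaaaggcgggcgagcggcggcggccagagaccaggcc
Slc15a1: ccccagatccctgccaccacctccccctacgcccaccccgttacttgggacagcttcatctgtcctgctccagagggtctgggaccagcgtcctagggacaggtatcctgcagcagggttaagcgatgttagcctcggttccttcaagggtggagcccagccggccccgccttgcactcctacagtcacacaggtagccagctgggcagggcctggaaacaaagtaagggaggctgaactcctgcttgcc

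The Slc6a20a window held 1 HNF1 motif, on the coding strand from base 195 of 250, and the Slc15a1 window held none of the 6 motifs. The 10 genes had 15 windows in the table, 5 of them for Slc7a7. The HNF1 motif occurred in 3 of these 15 windows (Slc6a20a, Slc7a7 and Slc36a1), against 6.43% of all 32851 windows. The E-box occurred in 1 (Slc36a1), against 6.02%, and the HNF4 motif in 1 (Slc3a1), against 1.2%. The CDX, D-box and amino acid response letters were in none, against 10.8%, 3.07% and 0.816% of all windows. The CDX and D-box letters can overlap in part. A match is a description of the letters and does not show binding.

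Slc6a19 encodes B0AT1, the main sodium-coupled carrier of neutral amino acids at the brush border. Its gene is on chromosome 13 (mm10, 73679745 to 73704865). It had 19557, 19262, 10952, 36296 and 16882 normalised reads in cKO 1 to 5, against 28991, 21330, 23537, 26481 and 25592 in WT 1, 3, 4, 5 and 6. In cKO, 4 libraries lay below the WT range and cKO 4 lay above it, so the groups overlapped. Its fitted log2 fold change was -0.39 (95% interval -0.94 to 0.15; limma adjusted p = 0.423). Without cKO 3 it was -0.19, without cKO 4 it was -0.62 and without cKO 3 and cKO 5 it was -0.07, and none of these passed.

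Slc7a9 and Slc3a1 encode the light chain b0,+AT and the heavy chain rBAT of the apical exchanger for cystine and cationic amino acids. Slc7a9 (chromosome 7, mm10, 35448796 to 35466036) had 8566, 5120, 3996, 7131 and 4778 normalised reads in cKO 1 to 5, against 6490, 6353, 7181, 5661 and 5655 in WT 1, 3, 4, 5 and 6. The WT values lay within a narrow band, and the cKO values fell on both sides of it. Slc3a1 (chromosome 17, mm10, 85028347 to 85064243) had 9070, 6150, 4763, 13224 and 5939 in cKO 1 to 5, against 10418, 7806, 9479, 12054 and 10942 in WT 1, 3, 4, 5 and 6. Of the cKO libraries, 3 lay below the WT range, cKO 1 within it and cKO 4 above it. The log2 fold changes were -0.13 for Slc7a9 (95% interval -0.57 to 0.30; limma adjusted p = 0.763) and -0.46 for Slc3a1 (95% interval -0.98 to 0.07; limma adjusted p = 0.333). The log2 fold change of Slc7a9 turned to 0.12 without cKO 3 and cKO 5.

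The chains of this exchanger can be set against each other within a library, which does not depend on scaling. The log2 ratio of Slc3a1 over Slc7a9 was 0.36 ± 0.31 in cKO and 0.68 ± 0.34 in WT (SD, n = 5 each), a difference of -0.32 (two-sided exact permutation p = 0.143, adjusted p = 0.238 over the 5 ratios tested by permutation). Slc3a1 shares 24.8% of its stretches of 50 bases with the opposite strand of Prepl, so without a stated strand setting reads of these genes cannot be fully told apart. Prepl stood at 842 ± 245 in cKO and 1364 ± 292 in WT (SD, n = 5 each).

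Slc1a1 encodes EAAC1, the carrier of glutamate and aspartate, and was the least abundant member in WT. The gene is on chromosome 19 (mm10, 28835049 to 28913960). It had 62.3, 68.2, 30.9, 27.7 and 52.1 normalised reads in cKO 1 to 5, against 78.8, 81.0, 62.4, 19.0 and 10.8 in WT 1, 3, 4, 5 and 6. WT 1, WT 3 and WT 4 stood above WT 5 and WT 6, as they did for Slc6a20a. The groups overlapped, and the log2 fold change was 0.22 (95% interval -0.90 to 1.35; limma adjusted p = 0.852). The means went the other way, at 48.2 ± 18.3 in cKO and 50.4 ± 33.3 in WT (SD, n = 5 each), so no direction can be given. Slc1a1 shares 31% of its stretches of 50 bases with the opposite strand of 4430402I18Rik.

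Slc36a1 encodes PAT1, a proton-coupled carrier of small neutral amino acids at the brush border and the lysosome. The gene is on chromosome 11 (mm10, 55204350 to 55236330). It had 1218, 1555, 1192, 2161 and 2468 normalised reads in cKO 1 to 5, against 2281, 1315, 2460, 2381 and 2065 in WT 1, 3, 4, 5 and 6. The low values were in cKO 1, cKO 2, cKO 3 and WT 3. The fitted difference was -0.32 on the log2 scale (95% interval -0.81 to 0.17; limma adjusted p = 0.478).

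On the basolateral side, Slc3a2 encodes 4F2hc, the heavy chain shared by several exchangers, Slc7a7 encodes its light chain y+LAT1 for cationic amino acids, and Slc7a8 encodes the light chain LAT2 for neutral ones. None of the 3 passed the test over all genes, and all 3 had intervals below 0. Slc3a2 (chromosome 19, mm10, 8706882 to 8723369) had 2162, 3622, 1631, 5511 and 3001 normalised reads in cKO 1 to 5, against 5110, 4562, 5435, 5011 and 5152 in WT 1, 3, 4, 5 and 6. In cKO, 4 libraries lay below the whole WT range and cKO 4 lay above it. Fitted across genotypes, the log2 fold change was -0.79 (95% interval -1.34 to -0.24; limma adjusted p = 0.126; two-sided exact permutation p = 0.0476).

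Slc7a7 (chromosome 14, mm10, 54369442 to 54417780) had 4624, 4827, 3224, 8409 and 5500 normalised reads in cKO 1 to 5, against 7923, 5756, 7237, 7733 and 7890 in WT 1, 3, 4, 5 and 6. As for Slc3a2, cKO 4 was the highest of all 10 libraries and the other 4 cKO libraries were below every WT library. The estimate for Slc7a7 was a log2 fold change of -0.52 (95% interval -0.99 to -0.05; limma adjusted p = 0.223). Slc7a8 (chromosome 14, mm10, 54722209 to 54781946) had 1300, 2113, 1030, 2773 and 1786 normalised reads in cKO 1 to 5, against 3930, 2326, 2224, 2241 and 2161 in WT 1, 3, 4, 5 and 6. Only cKO 4 overlapped with WT, and it lay above every WT library except the high WT 1. For Slc7a8 the log2 fold change was -0.56 (95% interval -1.10 to -0.03; limma adjusted p = 0.247).

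The light chains were also set against their heavy chain. The log2 ratio of Slc7a7 over Slc3a2 was 0.80 ± 0.28 in cKO and 0.52 ± 0.14 in WT (SD, n = 5 each; two-sided exact permutation p = 0.103, adjusted p = 0.238). That of Slc7a8 over Slc3a2 was -0.78 ± 0.12 in cKO and -1.01 ± 0.37 in WT (SD, n = 5 each; two-sided exact permutation p = 0.230, adjusted p = 0.288). Among the apical carriers, the log2 ratio of Slc6a20a over Slc6a19 was -8.91 ± 0.74 in cKO and -6.65 ± 1.05 in WT (SD, n = 5 each). The difference of -2.27 did not pass after adjustment over the 5 ratios (two-sided exact permutation p = 0.0159, adjusted p = 0.0794), and WT 5 and cKO 2 overlapped.

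**Figure D2:**
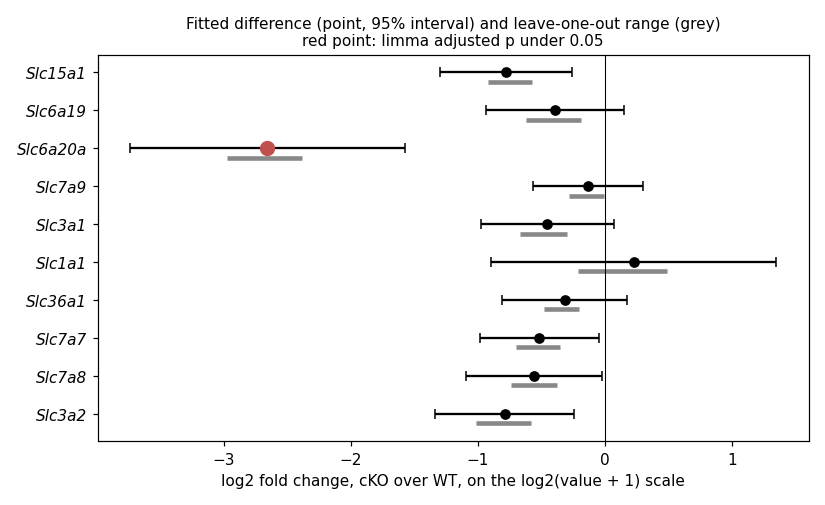
Fitted log2 fold change of cKO over WT for each transporter gene (point) with its 95% interval (bar), and the range when 1 library is left out (grey bar below). Slc6a20a, the red point at -2.66, is the only gene past the threshold over all genes, and the interval also lies below 0 for Slc15a1, Slc3a2, Slc7a7 and Slc7a8.

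The number of members past the threshold depended on single libraries. It was 0 without any 1 of cKO 1, cKO 3, cKO 5, WT 1, WT 3 or WT 4, and 4 without cKO 4. cKO 4 was the highest of all 10 libraries for 4 members (Slc6a19, Slc3a1, Slc7a7 and Slc3a2), and the 10 members together took 0.504% of its normalised reads, against 0.248% to 0.357% in the other cKO libraries and 0.391% to 0.495% in WT. Without cKO 4, 4 members fell, namely Slc6a20a (limma adjusted p = 0.0317), Slc3a2 (0.0223), Slc15a1 (0.0411) and Slc7a7 (0.0473), while 4.35% of all genes were then called (1.34% higher, 3% lower). The other end was cKO 3, the lowest of all 10 libraries for 9 members, with Slc1a1 as the exception, where WT 6 was lowest. The median of the 10 log2 differences from the WT mean was -0.51, -0.44, -1.18, 0.14 and -0.53 in cKO 1, 2, 3, 4 and 5. Without cKO 3 and cKO 5 the log2 fold changes shrank to -0.15 for Slc3a1, -0.34 for Slc7a7, -0.35 for Slc7a8 and -0.52 for Slc3a2. For Slc36a1 the log2 fold change was -0.21 without cKO 1, -0.20 without cKO 3 and -0.48 without WT 3. For Slc3a1 it was -0.30 without cKO 3, and for Slc7a9 it was -0.28 without cKO 1, -0.21 without cKO 4, -0.07 without cKO 5, -0.08 without WT 4 and -0.006 without cKO 3.

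Vil1, the villin gene of the microvillus core, varied in the same direction between these libraries, at 56950, 80410, 42460, 116900 and 75000 normalised reads in cKO 1 to 5 and 67720 to 80690 in WT. Its group means were alike, at 74350 ± 28150 in cKO and 73360 ± 5397 in WT (SD, n = 5 each; difference on the log2 scale -0.06, limma adjusted p = 0.920). Each member was therefore also expressed as a log2 ratio to Vil1 within its library, a comparison chosen after the data were seen and given without a test. For Slc3a2 the ratio was -4.72, -4.47, -4.70, -4.41 and -4.64 in cKO 1 to 5, against -3.73, -3.91, -3.75, -3.93 and -3.97 in WT 1, 3, 4, 5 and 6. These groups did not overlap, and the difference in means was -0.73. The groups also did not overlap for Slc7a7 (difference -0.46), Slc7a8 (-0.50) and Slc6a20a (-2.60), all lower in cKO. This was seen in 2.57% of all genes tested. Some other genes of the enterocyte, such as Ggt1, Creb3l3 and Apoa4, also lay lower in cKO relative to Vil1 without overlap. Others overlapped, such as Sis and Mttp. The separation was therefore not particular to these carriers. The ratios overlapped for the other 6 members, with differences of -0.72 for Slc15a1, -0.40 for Slc3a1, -0.33 for Slc6a19, -0.26 for Slc36a1, -0.07 for Slc7a9 and 0.29 for Slc1a1.

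**Figure D3:**
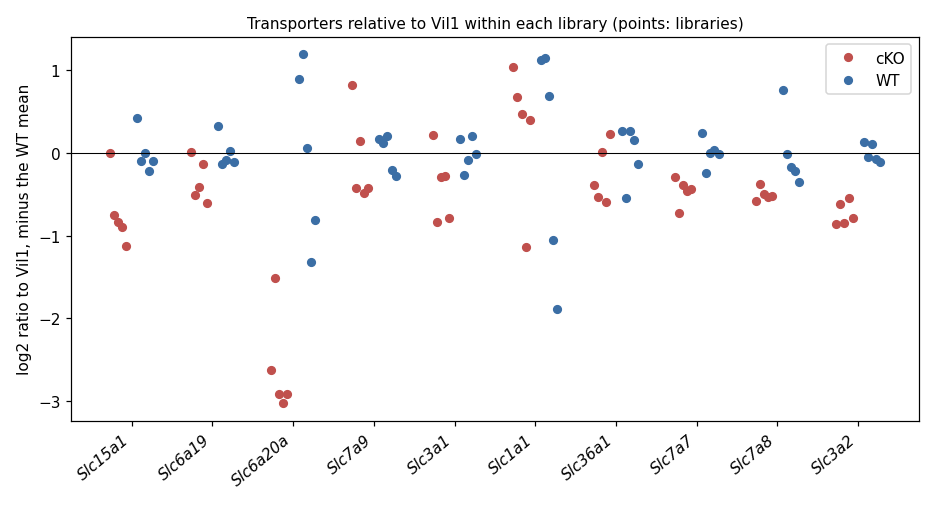
Log2 ratio of each transporter gene to Vil1 within each library, shown as the difference from the WT mean, cKO (red) left of WT (blue). The groups are apart for Slc6a20a and for the 3 basolateral genes Slc7a7, Slc7a8 and Slc3a2, whose differences in means were -2.60, -0.46, -0.50 and -0.73. Some enterocyte genes that are not plotted were also apart.

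Levels can be compared between genes only per length, as normalised reads per kilobase. In this unit Slc6a19 was the most abundant member, at 4113 ± 1885 in cKO and 5031 ± 582 in WT (SD, n = 5 each). Slc3a1 followed at 3394 ± 1477 in cKO and 4395 ± 695 in WT, and Slc15a1 at 2504 ± 889 in cKO and 4091 ± 576 in WT. Slc7a9 had 2212 ± 702 in cKO and 2342 ± 239 in WT, and Slc7a7 had 1604 ± 578 in cKO and 2205 ± 274 in WT. Slc3a2 came next at 903 ± 427 in cKO and 1432 ± 89.8 in WT, above Slc7a8 at 360 ± 137 in cKO and 515 ± 152 in WT, and Slc36a1 at 306 ± 102 in cKO and 373 ± 82.3 in WT. Slc6a20a had 11.02 ± 7.38 in cKO and 72.4 ± 44.5 in WT, and Slc1a1 had 7.82 ± 2.96 in cKO and 8.17 ± 5.40 in WT.

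Several neighbours in this order had overlapping ranges, but both genes of a pair were measured in the same library and can be compared there. In WT the per-kilobase ranges overlapped between Slc6a19 and Slc3a1, Slc3a1 and Slc15a1, Slc7a9 and Slc7a7, and Slc7a8 and Slc36a1, and were apart for the other neighbours. Within WT libraries Slc6a19 exceeded Slc3a1 in 5 of 5 and Slc7a8 exceeded Slc36a1 in 5 of 5. Slc3a1 exceeded Slc15a1 in only 3 of 5 and Slc7a9 exceeded Slc7a7 in only 3 of 5. In cKO the ranges of all neighbours overlapped except those of Slc36a1 and Slc6a20a. Within cKO libraries the order still held in 5 of 5 for Slc3a1 over Slc15a1, Slc7a9 over Slc7a7, Slc7a7 over Slc3a2 and Slc3a2 over Slc7a8. It held in 4 of 5 for Slc6a19 over Slc3a1, and in 3 of 5 for Slc15a1 over Slc7a9 and Slc7a8 over Slc36a1. Slc6a20a exceeded Slc1a1 in 2 of 5 cKO libraries and in 5 of 5 WT libraries.

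**Figure D4:**
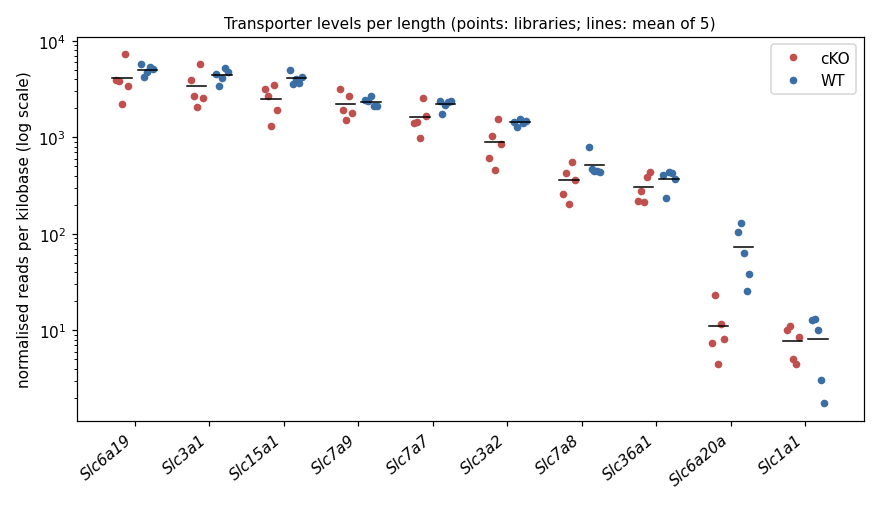
Normalised reads per kilobase of gene length on a log axis for each transporter gene, cKO (red) left of WT (blue), in the order of the WT means, with a line at each mean of 5 libraries. Slc6a19 is highest and Slc1a1 lowest in WT, and Slc6a20a stands at a mean of 11.02 in cKO and 72.4 in WT.

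The genes whose pattern over the 10 libraries was most like that of Slc6a20a were Cndp1, Adh1 and Foxq1. The measure was the root mean square difference of log2(value + 1), centred on each gene, among 8574 genes with a mean of at least 100. It was 0.56 for Cndp1, 0.58 for Adh1 and 0.72 for Foxq1, beside 1.57 for Slc6a20a against its own mean. Cndp1, a dipeptidase for carnosine, averaged 45.0 ± 11.04 normalised reads in cKO and 223 ± 61.2 in WT (SD, n = 5 each). Adh1, an alcohol dehydrogenase, averaged 1705 ± 886 in cKO and 5849 ± 2149 in WT. Foxq1, a forkhead transcription factor, averaged 55.4 ± 32.1 in cKO and 189 ± 68.9 in WT. In all 3, as in Slc6a20a, WT 3 was the highest library and WT 5 the lowest of the WT libraries. The 3 genes were picked for their likeness over these same libraries, so this shared order follows from the choice and is no separate result.

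Genes around these carriers were taken from lists drawn up by function. Of 26 other plasma membrane amino acid transporters, 15 reached the filter, and none passed a limma adjusted p of 0.05, with 2 higher and 1 lower at an unadjusted p under 0.05. Their median log2 fold change was 0.16, with 5 of 15 negative, while that of all genes was 0.01. The smallest p belonged to Slc1a3, a glutamate carrier, at 30.9 ± 10.8 in cKO and 13.7 ± 5.85 in WT (SD, n = 5 each; difference on the log2 scale 1.13, limma adjusted p = 0.112). DESeq2 called this gene and no other of the list, and edgeR called none. Slc6a6, the taurine carrier, had a log2 fold change of -0.58 (limma adjusted p = 0.190). Slc16a10, the basolateral carrier of aromatic amino acids known as TAT1, had 2982 ± 1008 in cKO and 3866 ± 684 in WT (SD, n = 5 each; difference on the log2 scale -0.42, limma adjusted p = 0.317). Slc43a2, a basolateral uniporter, had a log2 fold change of -0.15 (limma adjusted p = 0.773). Slc16a10 and Slc43a2 were picked for their role after their values were seen.

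Of 6 other peptide and lysosomal carriers tested, none passed in limma, edgeR or DESeq2, and 1 was higher at an unadjusted p under 0.05. It was Slc38a9, the lysosomal arginine sensor of the mTORC1 pathway, at 102 ± 20.9 in cKO and 68.3 ± 14.2 in WT (SD, n = 5 each; difference on the log2 scale 0.57, limma adjusted p = 0.165). Slc38a7, a lysosomal glutamine carrier, had a log2 fold change of -0.44 (limma adjusted p = 0.302). The median of the list was near 0.

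Of 7 partners and ion gradient genes tested, none passed in limma, edgeR or DESeq2, all 7 had negative log2 fold changes and 3 were lower at an unadjusted p under 0.05. The median was -0.39. Atp1b1, a subunit of the sodium pump that drives sodium-coupled uptake, stood at -0.58 on the log2 scale (limma adjusted p = 0.227). Slc9a2, a sodium-proton exchanger, had -0.40 (limma adjusted p = 0.251). Slc9a3, the apical exchanger that keeps up the proton gradient used by PEPT1, had 3395 ± 2912 in cKO and 3225 ± 210 in WT (SD, n = 5 each). The higher cKO mean came from cKO 5, as the values were 1705, 1657, 3534, 1675 and 8402 in cKO 1 to 5. WT libraries lay between 2858 and 3387, and the fitted log2 fold change was -0.26 (limma adjusted p = 0.757). Without cKO 3 and cKO 5 Slc9a3 fell, at a log2 fold change of -0.94 (limma adjusted p = 0.0176), where 0.213% of all genes were lower. Slc9a3 was named after its values were seen.

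Among 15 peptidases of the enterocyte, which release the substrates of these carriers, none passed in limma or edgeR, and 12 had negative log2 fold changes with a median of -0.28. In limma 3 were lower at an unadjusted p under 0.05. DESeq2 called 2 lower, Mep1a and Ggt1. Mep1a, a subunit of the metalloprotease meprin, had 984 ± 319 in cKO and 1676 ± 290 in WT (SD, n = 5 each; difference on the log2 scale -0.83, limma adjusted p = 0.0897). Ggt1, which cleaves gamma-glutamyl bonds such as that of glutathione, had 13350 ± 4819 in cKO and 21340 ± 1660 in WT (SD, n = 5 each; difference on the log2 scale -0.75, limma adjusted p = 0.104).

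No gene passed in limma or edgeR among 17 genes of amino acid metabolism, 10 of the amino acid starvation response and 11 regulators of intestinal nutrient genes. The medians were -0.38, -0.18 and -0.17, and 2, 2 and 3 genes were lower at an unadjusted p under 0.05, with none higher. DESeq2 called 1 of these genes, Eif4ebp1, a translation repressor induced by ATF4, with a limma log2 fold change of -0.81 (limma adjusted p = 0.116). Prodh, which degrades proline, the substrate of SIT1, had 328 ± 75.1 in cKO and 485 ± 88.1 in WT (SD, n = 5 each; difference on the log2 scale -0.58, limma adjusted p = 0.129), and Bcat2, an aminotransferase of branched-chain amino acids, had a log2 fold change of -0.57 (limma adjusted p = 0.165). Ddit3, a transcription factor of the same stress response as Eif4ebp1, had -0.51 (limma adjusted p = 0.218). Ppara, a transcription factor of lipid genes, stood at -0.75 on the log2 scale (limma adjusted p = 0.238).

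**Figure D5:**
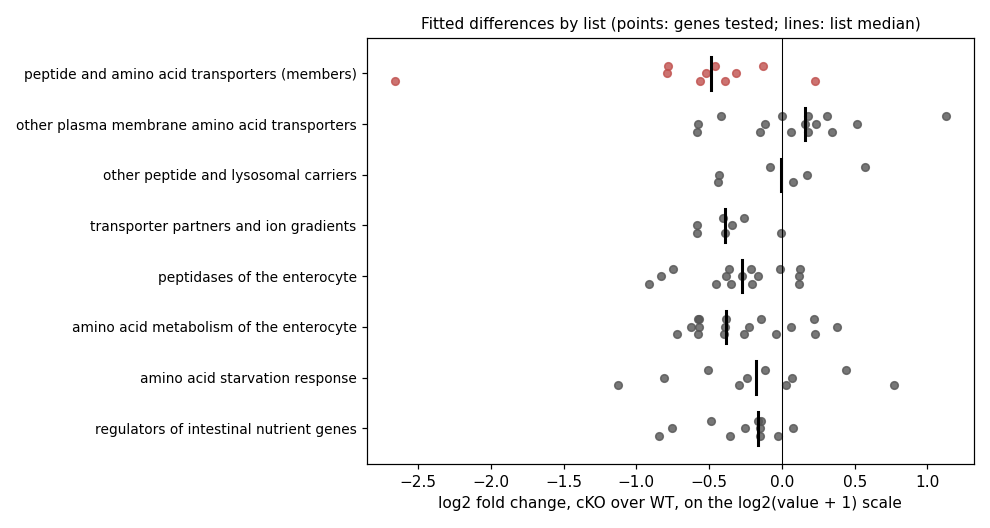
Fitted log2 fold change of cKO over WT for every tested gene of each list (points), with the list median as a line. The 10 transporter genes (red, median -0.49) include Slc6a20a at -2.66, and the 15 other plasma membrane transporters have a median of 0.16.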

How the data were processed

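Per the submitters' processing notes, the tools were CASAVA, HISAT2 2.0.5, featureCounts 1.5.0-p3 and DESeq2 1.20.0, with genome build mm10. The annotation release, strand setting and treatment of multiply matching reads are not stated in the sources at hand. The deposited table holds a signal for each gene in each library. Its values behave as reads scaled by a single factor per library. All values were whole multiples of 1 step per library within 0.001 (100%), which gave the recovered reads. The authors' log2 fold change, p-value and adjusted p-value in the deposited table served only for comparison, and may rest on more libraries than the 10 used. A further 2 columns of per-sample values match no label and were not used.

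The scale was log2(value + 1), and 14062 genes averaging at least 10 entered the fit of genotype by limma 3.58.1 under R 4.3.3 (trend and robust moderation), with Benjamini-Hochberg adjustment over all genes. As the table held normalised values and not counts, this was the main test. edgeR 4.0.16 (181 genes called) and DESeq2 1.42.0 (750 genes called) were run on recovered reads as alternatives. The design foresaw 5 ratios between genes, tested by exact two-sided permutation of the libraries and adjusted together; 1 of them is not reported here, nor are the values of some listed genes. On counts simulated for the cKO against WT comparison, limma over about 13919 genes recovered 29.3% of 2-fold and 87.3% of 4-fold changes, with 4.66% of calls false. Each gene was drawn independently there, so shifts that many genes share within a library were not part of the simulation. P-values measure the spread between mice. The members and gene lists were chosen with earlier results of these data known. Named genes were all 10 members, every gene of a list past the threshold or else the 2 with the smallest p, and the 3 genes nearest in pattern. Same-numbered cKO and WT libraries did not deviate together (correlations of -0.105 to 0.118), so the numbers were not taken as pairs. Promoter windows came from RefSeq and transcripts from GENCODE M21. Plots used Python 3.11.15 and matplotlib 3.10.9.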

Additional observations from a re-analysis of the deposited data

Results flagged for a closer look

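In 20 groups of 5 member values and 10 groups of 5 log2 ratios, a single library stood far from the other 4 on 2 occasions, where chance alone would flag about 1 group in 20. Slc7a8 stood at 3929 normalised reads in WT 1, while the other WT libraries lay between 2161 and 2326. Without WT 1 its log2 fold change was -0.40 (limma adjusted p = 0.429). The log2 ratio of Slc3a1 over Slc7a9 was 0.89 in cKO 4 and at most 0.31 in the other cKO libraries.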

How the results depend on the processing

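The count of lower members, 1 in limma, was 0 without the filter on low values, 0 without cKO 3 and cKO 5, and between 0 and 4 with 1 library left out. The count of higher members was 0 under each of the 20 alternatives. Over all genes, limma called 62 higher and 124 lower. DESeq2 called 335 higher and 415 lower, edgeR with library totals 86 higher and 74 lower, and limma without cKO 3 and cKO 5 called 26 higher and 30 lower. With 1 library left out the higher count ran from 12 to 189 and the lower from 18 to 422. The total of 186 was 65, 611 and 111 without cKO 3, 4 and 5, and 91, 44, 30, 67 and 60 without WT 1, 3, 4, 5 and 6. With library totals the median over all genes moved to 0.14, and relative to it Slc15a1 and Slc3a2 stood at -0.79 and -0.73.

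With the replicate number as a block, limma called 82 genes lower and 48 higher, against 56 and 33 in an unblocked fit of those 8 numbered libraries, and Slc6a20a passed in both. The numbers are not known to pair the mice. The log2 fold change of Slc1a1 turned to -0.36 in both of these fits, to -0.060 in edgeR with TMM factors, to -0.062 in DESeq2, and ran from -0.21 to 0.49 with 1 library left out. Slc7a9 turned to 0.12 without cKO 3 and cKO 5. The 4 ratios reported kept their direction and stayed short of the threshold in all 12 alternatives. Only the changed pseudocount kept all libraries. In the others, a single ratio at the smallest possible exact p cannot pass after adjustment, so they could hardly have turned out otherwise. The causes were not tested. Slc1a1 had no value with the stricter filter. Depth limits Slc6a20a and Slc1a1, at 23 to 528 and 10 to 80 reads.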
